A study of Rattus norvegicus with 56 samples.

Results

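The AMPA and kainate receptor subunits Gria1 to Gria4 and Grik1 to Grik5 were examined in cultured rat hippocampal neurons after repetitive transcranial magnetic stimulation. These 9 genes were found through the RefSeq accession of each probe, out of 13895 genes with a symbol that were tested on the arrays, and all 9 were measured. The arrays carried 13 probes for them, and each gene was represented by its brightest probe. Primary cultures came from hippocampi of embryonic (E18) Sprague-Dawley rats, with no genetic change in any group. Dishes received 1 Hz pulses, theta bursts given intermittently (iTBS) or a sham treatment with the coil kept at a distance, and RNA was collected 0, 2, 8, 24 or 48 h later. Untreated control cultures were collected at 0 h. After 1 array with a badly placed grid (1 Hz at 2 h, replicate 2) was left out, 55 arrays in 16 groups remained, with 4 arrays in 8 groups, 3 in 7 groups and 2 in the group of 1 Hz at 2 h.

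Receptors of both families are channels that open when glutamate binds. AMPA receptors carry most of the fast excitatory current at hippocampal synapses, and their subunit GluA2, encoded by Gria2, limits the entry of calcium once its transcript has been edited. Kainate receptors modulate transmitter release and excitability. The kainate subunits encoded by Grik1, Grik2 and Grik3 can form channels on their own, whereas those encoded by Grik4 and Grik5 bind kainate with high affinity and need a partner from the first group.

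A level below is the log2 signal of a probe scaled within its array, so that each array has a mean of 0 and a difference of 1 is close to a factor of 2 in signal. Levels were compared only within a probe. Every chosen probe was well above background on all 55 arrays, except that of Grik3, which was so on 54. The sample numbers in the labels fell into 4 series, called A, B, C and D here, with 11, 12, 17 and 15 arrays. The labels do not say what a series is, nor whether the arrays of a group came from separate cultures, so p-values measure the spread between these samples. Once group means had been subtracted, arrays of 1 series correlated with each other (mean r 0.398 across groups) more than with arrays of the other series (mean r −0.134), and each of the 55 arrays was closest to its own series. Comparisons between groups were therefore fitted with the series as a term (limma), and p-values were adjusted over all 35707 probes tested. Because these are bulk samples, fewer cells of a type and less RNA per cell cannot be told apart.

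One array stood apart, 1 Hz at 48 h replicate 1 of series A. Its median correlation with the other arrays of its series was 0.949, against 0.967 to 0.991 for the other 54 arrays. Values without it are given beside the results that it moved most.

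Neuron markers were present on every array, and so were markers of glia. All 7 neuron genes, all 6 astrocyte genes and all 8 oligodendrocyte lineage genes of the marker lists were well above background on all 55 arrays. Genes of glia were therefore measured beside those of neurons. Of 8 endothelial, mural and fibroblast genes 5 were well above background on all 55 arrays, and of 6 microglial genes 2 were. The dimmest genes of these lists were Cldn5, well above background on 6 arrays, and Csf1r, on 7.

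Grik1, Grik2 and Grik3 were lower at 48 h than at 0 h, as described below, and the stretches of 250 bases upstream of their starts are shown for that reason. They are RefSeq sequences of build GRCr8, from a table in which 6 of the 9 genes were matched (Gria4 and Grik1 to Grik5), written 5′ to 3′ on the strand of the gene. Capitals mark GGGCGG (a GC box) and TGACG (the core of a cAMP response element), searched on both strands. The stretches are chr11:41056504-41056753 on the minus strand for Grik1, chr20:54415284-54415533 on the minus strand for Grik2 and chr5:143052192-143052441 on the plus strand for Grik3.
Grik1: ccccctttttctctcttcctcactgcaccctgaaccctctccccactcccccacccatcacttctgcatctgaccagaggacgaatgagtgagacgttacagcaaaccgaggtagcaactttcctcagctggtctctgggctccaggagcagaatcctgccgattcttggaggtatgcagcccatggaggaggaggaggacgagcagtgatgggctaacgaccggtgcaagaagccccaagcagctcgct
Grik2: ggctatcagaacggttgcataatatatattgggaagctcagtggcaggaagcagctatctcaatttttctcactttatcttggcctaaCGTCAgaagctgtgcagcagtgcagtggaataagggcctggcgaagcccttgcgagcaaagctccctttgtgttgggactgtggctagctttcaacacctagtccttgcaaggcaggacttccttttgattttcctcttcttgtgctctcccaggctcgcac
Grik3: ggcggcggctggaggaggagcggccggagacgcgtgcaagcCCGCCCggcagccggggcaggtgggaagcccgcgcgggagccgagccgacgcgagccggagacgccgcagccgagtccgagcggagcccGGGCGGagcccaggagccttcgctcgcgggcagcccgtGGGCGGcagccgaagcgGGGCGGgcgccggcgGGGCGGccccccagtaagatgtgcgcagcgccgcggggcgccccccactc
The stretch of Grik3 was 81.6% G and C with 41 CpG pairs and held 5 GC boxes. That of Grik2 was 49.6% G and C with 5 CpG pairs and held 1 TGACG core, and that of Grik1 was 57.6% G and C with 8 CpG pairs and held neither motif. Over the 33469 promoters of the table the median was 51.2% G and C with 5 CpG pairs. GGGCGG occurred in 30.5% of them and TGACG in 18.2%. Neither motif was common to the 3 stretches.

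The main question of the study was whether stimulation changed transcription relative to sham at the same time. None of the 9 subunits passed in any of the 10 comparisons (0 of 90 tests, limma, adjusted p under 0.05, with 4 at an unadjusted p under 0.05). Among all probes, 0% passed in 7 of the comparisons, 0.00280% in 1 Hz at 8 h and in iTBS at 0 h, and 0.00560% in iTBS at 8 h. Log2 changes of the subunits ran from −0.85 to +0.57, and the smallest adjusted p was 0.685. An F test over all 10 comparisons called 0 of the 9 (0.00280% of all probes), and so did an F test of iTBS against 1 Hz (0.00280% of all probes).

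Gria2 was the most tightly bounded, with standard errors from 0.14 to 0.17 and changes from −0.28 (iTBS at 48 h) to +0.16 (iTBS at 24 h). Its 95% intervals stayed between −0.58 and +0.48 over all 10 comparisons. Gria3 ran from −0.23 to +0.29, Gria4 from −0.28 to +0.28 and Gria1 from −0.30 to +0.14. The kainate subunits were less well bounded. For Grik2 this rested on the array that stood apart. Without it, the standard errors of Grik2 at 48 h were 0.152 for 1 Hz and 0.140 for iTBS, against 0.150 and 0.139 for Gria2. Intervals of Grik3, whose raw signals ran from 17.7 to 160.1, reached from −1.68 to +1.42.

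Grik1 had changes from −0.33 (iTBS at 0 h) to +0.51 (iTBS at 24 h). At 24 h its sham levels were 0.38 in series B, 0.93 in C and 2.22 in D. Its iTBS levels at 24 h were 1.21 in series B, 1.35 in C and 2.50 in D. Each iTBS array at 24 h lay above the sham array of its own series, while the groups overlapped widely. When series and time were combined into 1 blocking factor, the smallest unadjusted p of Grik1 was 0.013 and its smallest adjusted p 0.317. Grik1, Grik4 and Gria3 were among the selected genes that the study reported as changed against sham in its cultures. Those calls used an ANOVA filter, a z-test, a looser false discovery rate than here, and cut-offs on the size of change and the level. The study lists 56 samples for its cultures and does not say whether the array left out here was used. None of these genes passed here.

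Of the 4 tests at an unadjusted p under 0.05, 2 rested on the array that stood apart. Grik2 at 48 h after 1 Hz had levels of 1.15, 3.40, 3.32 and 3.26 in series A to D, against 3.44, 3.42 and 3.1 in sham of series A, C and D. The value of 1.15 is the lowest of all 55 arrays for this gene, and the other 3 lie within the range of sham. The log2 change was −0.60 ± 0.29 (SE, limma, adjusted p 0.858) with this array and +0.04 ± 0.15 without it.
Grik3 at 48 h after 1 Hz had levels of −2.69, −1.0, −1.15 and −0.74, against 0.20, −0.82 and −1.02 in sham. Its change of −0.85 ± 0.41 (SE, limma, adjusted p 0.858) became −0.33 ± 0.39 without the array. The change of Gria1 in the same comparison was −0.30 with the array and 0.005 without it. The other 2 tests concerned Grik5, with −0.56 ± 0.26 at 24 h after 1 Hz (SE, limma, adjusted p 0.967) and +0.57 ± 0.24 at 48 h after iTBS (SE, limma, adjusted p 0.913). At 24 h its levels ran from 7.44 to 7.86 on 3 arrays after 1 Hz and from 8.05 to 8.12 on 3 sham arrays, without overlap. Levels of Grik5 at 48 h after iTBS were 8.56, 8.77, 8.07 and 8.00 in series A to D, and those of sham were 7.63, 8.14 and 7.74 in series A, C and D, so that the groups overlapped.

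**Figure D1:**
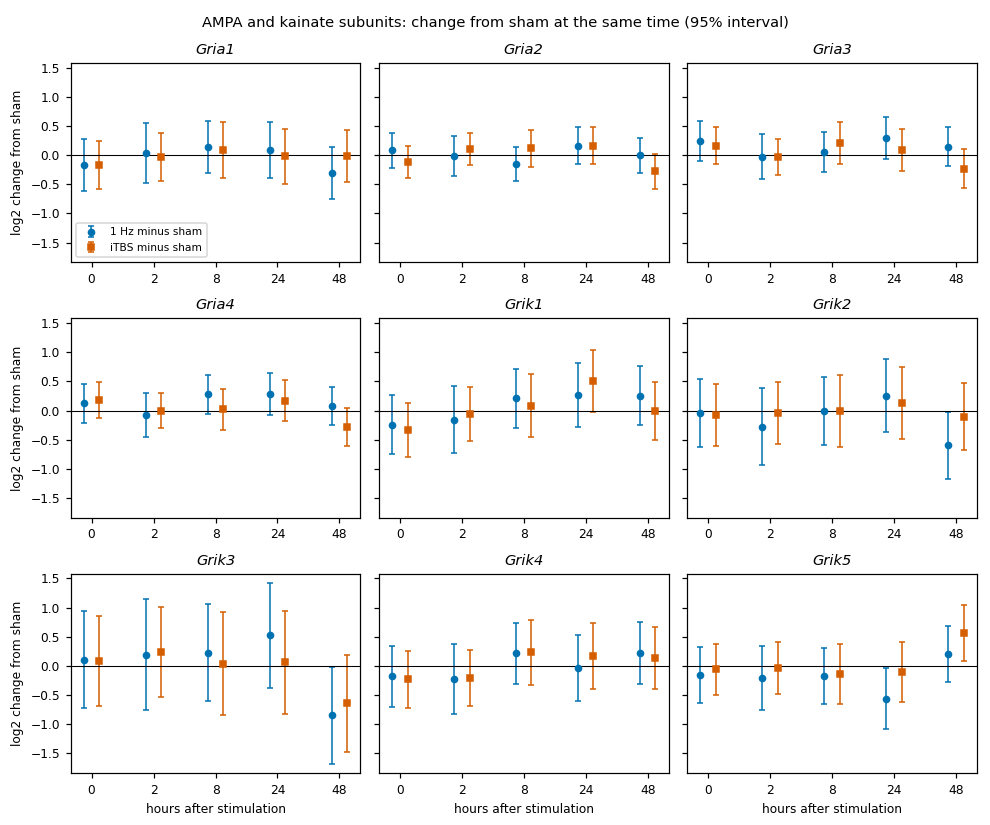
Log2 change from sham at the same time for each subunit (vertical axis, points with 95% intervals from limma) by hours after stimulation (horizontal axis, evenly spaced), for 1 Hz (circles) and iTBS (squares). Changes lie between −0.85 and +0.57 and none passed the adjusted threshold.

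Untreated cultures were compared with sham at 0 h. The study's methods do not describe how the untreated dishes were kept, so this comparison need not reflect handling alone. None of the 9 subunits differed (limma, adjusted p of 1.00 for each, 0 at an unadjusted p under 0.05), and 0.00560% of all probes passed. Changes ran from −0.40 ± 0.23 (SE) for Grik1 to +0.05 ± 0.15 for Gria4. Control cultures came only from series A and C, with 2 arrays each, so this comparison leans on those series.

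Levels differed between the times when the 3 arms (sham, 1 Hz and iTBS) were averaged. An F test over the times called 5 of the 9 subunits, Gria1, Gria3, Gria4, Grik1 and Grik2, beside 27% of all probes tested. At 2 h none differed from 0 h (limma, 0 subunits and 0% of all probes, with 0 subunits and 1020 probes at an unadjusted p under 0.05). At 48 h, 4 subunits were lower and none higher, beside 13.4% and 13.6% of all probes. The median log2 change of the 9 subunits at 48 h was −0.13, against −0.04 over all probes. The arrays lay on 7 slides, and no series had arrays of 0 h and of 48 h on the same slide. The change at 48 h can therefore be separated from the slide only through other times and series. With the slide as a further term (limma), Gria1, Grik2 and Grik3 still passed at 48 h (adjusted p 0.0279, 0.0342 and 0.0492). Grik1 did not (adjusted p 0.229).

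Among the kainate subunits that can form channels alone, Grik2 fell by 0.50 ± 0.17 (SE, limma, adjusted p 0.0405) at 24 h and by 0.66 ± 0.16 (adjusted p 0.00221) at 48 h. The 11 arrays at 0 h ran from 3.40 to 4.16 (median 3.71). The 9 arrays at 24 h ran from 3.08 to 3.42 (median 3.33), so the ranges met only at their ends.
At 48 h, 11 arrays ran from 1.15 to 3.46 (median 3.32), and the lowest is the array that stood apart. Without it the fall was 0.49 ± 0.08 (adjusted p 6.14e-05) at 24 h and 0.48 ± 0.08 (adjusted p 2.46e-05) at 48 h. The mean of Grik2 at 48 h lay below that at 0 h in every series, by 1.41 in A, 0.77 in B, 0.25 in C and 0.36 in D, and in A by 0.65 without the array that stood apart. The call at 24 h was near the threshold and was lost when any 1 of 14 other arrays was left out, with adjusted p up to 0.100 and changes from −0.54 to −0.45. It was also lost without the series term, with the slide term, with scaling to the 75th percentile, without the filter on dim probes and with all 56 arrays. No series had arrays of 0 h and of 24 h on the same slide either.

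Grik1 fell by 0.63 ± 0.14 (SE, limma, adjusted p 0.0103) at 8 h, by 0.64 ± 0.15 (adjusted p 0.00236) at 24 h and by 0.65 ± 0.14 (adjusted p 0.000664) at 48 h, or by 0.67 without the array that stood apart. Arrays at 0 h ran from 1.39 to 3.17 (median 1.81), and those at 8 h ran from 0.73 to 2.56 (median 1.16). These ranges overlap because series D lay above the others, and within a series the groups separate better. In series B, levels were 1.79, 1.43 and 1.94 at 0 h and 1.07, 0.80 and 0.73 at 8 h. In series D they were 2.88, 2.99 and 3.17 at 0 h and 2.36, 2.56 and 2.13 at 8 h. The calls at 8, 24 and 48 h were lost without the series term (adjusted p 0.714, 0.340 and 0.197) and with the slide as a further term (adjusted p 0.490, 0.324 and 0.229). Its direction was the same in those fits, from −0.62 to −0.44.

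Grik3 fell by 0.82 ± 0.23 (SE, limma, adjusted p 0.00797) at 48 h and by 0.67 ± 0.21 (adjusted p 0.0161) without the array that stood apart. Its 11 arrays at 0 h ran from −0.59 to 0.31 (median −0.25), and the 11 at 48 h from −2.69 to 0.20 (median −1.02). Of those at 48 h, 10 lay below every sham, 1 Hz and iTBS array at 0 h, and the remaining array, at 0.20, was sham of series A. The mean at 48 h was lower than at 0 h in each series, by 0.93 in A, 1.27 in B, 0.77 in C and 0.48 in D. In A it was lower by 0.18 without the array that stood apart. The F test over the times did not call Grik3 (adjusted p 0.0701).

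The high-affinity kainate subunits did not pass at any time. Grik4 changed by +0.24 ± 0.15 (SE, limma, adjusted p 0.232) at 48 h with a 95% interval from −0.06 to +0.54, and by +0.16 without the array that stood apart. Grik5 changed by +0.06 ± 0.13 (adjusted p 0.779) with an interval from −0.21 to +0.33.

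Among the AMPA subunits, Gria1 fell by 0.52 ± 0.12 (SE, limma, adjusted p 0.00188) at 48 h and by 0.44 ± 0.11 (adjusted p 0.00287) without the array that stood apart. Gria1 encodes a subunit that is brought to synapses during potentiation. Arrays at 0 h ran from 2.95 to 3.81 (median 3.55) and those at 48 h from 2.12 to 3.46 (median 2.98). The groups overlapped, and the mean was lower at 48 h in each series, by 0.76 in A, 0.63 in B, 0.24 in C and 0.51 in D, and in A by 0.37 without that array. A further Gria1 probe fell by 0.30 ± 0.12 (SE, limma, adjusted p 0.0601) and did not pass.

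Gria3 rose by 0.29 ± 0.10 (SE, limma, adjusted p 0.042) at 24 h, where 8.58% of all probes rose and 5.39% fell. Arrays ran from 4.16 to 5.35 (median 4.71) at 0 h and from 4.85 to 5.52 (median 5.06) at 24 h, and overlapped. The call was lost when any 1 of 13 arrays was left out, with changes from +0.22 to +0.35 and adjusted p up to 0.153. It was kept in 6 of 13 other settings and was lost, among others, without the series term (adjusted p 0.207), with scaling to the 75th percentile and with the deposited scores. Both further Gria3 probes had positive changes that did not pass, +0.31 ± 0.15 (adjusted p 0.163) and +0.19 ± 0.11 (adjusted p 0.246).
Gria4 fell by 0.38 ± 0.09 (SE, limma, adjusted p 0.0173) at 8 h, where 0.683% of all probes fell and 1.69% rose. Arrays ran from 4.16 to 5.16 (median 4.68) at 0 h and from 3.83 to 4.81 (median 4.21) at 8 h. The fall was seen in series B, C and D, by 0.58, 0.53 and 0.30, and the single array of series A at 8 h lay 0.39 above its mean at 0 h. The call was lost without 1 Hz at 0 h replicate 1 or without iTBS at 8 h replicate 2, with adjusted p up to 0.055 and changes of −0.33 and −0.36. It was kept in 7 of 13 other settings and was lost, among others, without the series term (adjusted p 0.331), with the slide term (0.550) and with normexp background correction (0.0822). Its further probe changed by −0.03 ± 0.09 (adjusted p 0.942). Gria2 did not pass at any time, and at 48 h its change was −0.13 ± 0.08 (adjusted p 0.242, 95% interval −0.30 to +0.03), or −0.17 (adjusted p 0.123) without the array that stood apart.

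**Figure D2:**
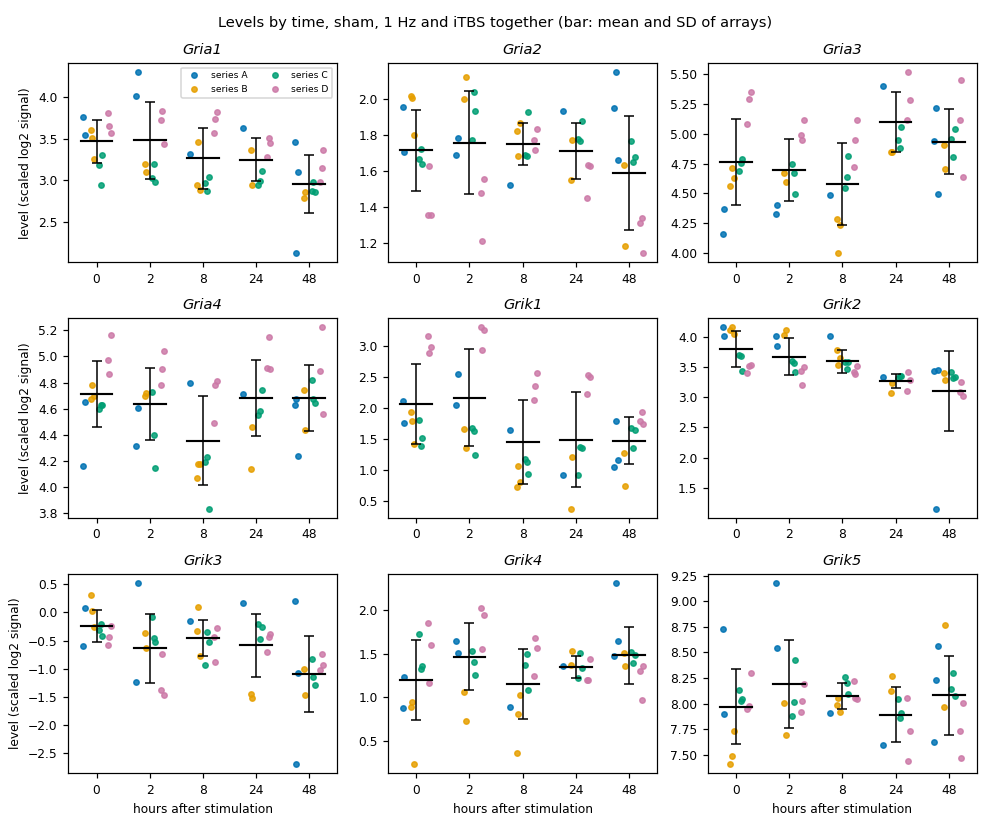
Level of each subunit (vertical axis, scaled log2 signal, its own range in each panel) by hours after stimulation, with 1 point per sham, 1 Hz or iTBS array coloured by series, and a bar for the mean and SD of the arrays. Grik2 descends from 0 h to 24 h in all series, and the lowest points of Grik2, Grik3 and Gria1 at 48 h are 1 array of series A.

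Markers of other cells moved over the same times, and their part in these changes was not tested. At 48 h, 4 of 6 astrocyte genes were higher than at 0 h and none lower, with a median of +0.76, and Gfap, a filament protein of astrocytes, rose by 1.64. The mean level of the astrocyte list ran from 5.75 to 6.47 at 0 h and from 6.17 to 7.38 at 48 h. Of 7 neuron genes, 3 were lower (Tubb3, Map2 and Stmn2) and none higher, with a median of +0.03. Of 5 excitatory neuron genes 1 was lower with the array that stood apart and 0 without it, and of 5 inhibitory neuron genes, 8 oligodendrocyte lineage genes and 6 microglial genes none passed.

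Levels also differed between the series. An F test called 6 of the 9 subunits, all but Grik2, Grik3 and Grik5, beside 75.4% of all probes, so this share lies below the background. Without the array that stood apart it called 7, with Grik2 added (adjusted p 1.09e-05 in place of 0.163), beside 76.1% of all probes. Of the 19 calls in the 6 comparisons between series, 16 involved series D, whose arrays were spread over all 7 slides. Arrays of A, B and C shared no slide with each other, so their differences can be separated from the slide only through D. With the slide as a further term (limma), Grik1 in B against A (adjusted p 0.694) and Gria1 in C against A (0.13) were lost. In D against B, Gria1, Gria2 and Grik2 were lost (adjusted p 0.198, 0.348 and 0.195), and in D against C Gria3 (0.214). The other calls between series were kept. Without the array that stood apart there were 23 calls in the 54 tests, beside 27.3% to 54.5% of all probes over the 6 comparisons.

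Grik1 had the largest difference among the subunits. Its level was higher in D than in B by 1.38 ± 0.13 (SE, limma, adjusted p 9.63e-12), than in C by 1.19 ± 0.12 (adjusted p 4e-11) and than in A by 0.89 ± 0.14 (adjusted p 1.49e-06). Levels ran from 1.75 to 3.30 (median 2.53) in D, from 0.38 to 1.94 (median 1.24) in B, from 0.93 to 1.81 (median 1.37) in C and from 0.92 to 2.55 (median 1.79) in A. The raw signals had medians of 710 in D, 227 in B, 262 in C and 305 in A. On each of the 7 slides, every array of D lay above every array of the other series on that slide, by a mean of 0.35 to 1.62. Grik1 was also lower in B than in A, by 0.49 ± 0.15 (adjusted p 0.00942), a call that was lost with the slide term.

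Among the AMPA subunits, Gria3 and Gria4 were higher in D and Gria2 was lower. Gria3 exceeded A by 0.48 ± 0.09, B by 0.49 ± 0.09 and C by 0.32 ± 0.08 (SE, limma, adjusted p 4.8e-05, 7.73e-06 and 0.000639). Its levels ran from 4.63 to 5.52 in D, against 4.16 to 5.40 in A, 4.00 to 4.91 in B and 4.49 to 5.06 in C. Both further Gria3 probes were higher in D than in A and in B, and 1 of them was also higher than in C (adjusted p 0.0104), while the other was not (adjusted p 0.136).
Gria2 was lower in D than in A by 0.36 ± 0.08, than in B by 0.30 ± 0.08 and than in C by 0.28 ± 0.07 (adjusted p 0.000361, 0.00117 and 0.000914). Its levels ran from 1.14 to 1.83 in D and from 1.18 to 2.15 in the other series. On slide 4 the mean of D lay 0.13 above that of B. On the other slides D lay below the series beside it, by 0.07 to 0.58. These slide means mix times and arms. With normexp background correction the differences of Gria2 from B and C no longer passed. Gria1 was higher in D than in B by 0.36 ± 0.11 (adjusted p 0.00706) and than in C by 0.48 ± 0.10 (adjusted p 0.000184), and lower in C than in A by 0.40 ± 0.12 (adjusted p 0.00533). For Gria1, D and A differed by +0.08 ± 0.12 (adjusted p 0.634). The further Gria1 probe differed between D and B by +0.16 ± 0.11 (adjusted p 0.228) and did not pass, but passed in D against C and in C against A. Without the array that stood apart, Gria1 was also lower in B than in A, by 0.41 (adjusted p 0.00771).

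The Gria4 probes went opposite ways. The brighter one was higher in D than in A by 0.40 ± 0.09, than in B by 0.39 ± 0.08 and than in C by 0.42 ± 0.08 (SE, limma, adjusted p 0.000398, 0.000174 and 1.4e-05). The other was lower in D than in A by 0.49 ± 0.09, than in B by 1.04 ± 0.08 and than in C by 1.15 ± 0.08 (adjusted p 1.96e-05, 1.62e-13 and 8.61e-16). Levels of this second probe ran from 2.20 to 2.77 in D, from 2.54 to 3.51 in A, from 3.09 to 3.86 in B and from 3.33 to 3.76 in C. All arrays of D thus lay below all arrays of B and C, and on each of the 7 slides below every array of the other series. It was well above background on all 55 arrays, and the levels of the 2 probes had a Pearson correlation of −0.50 over the 55 arrays, which share the series. The file assigns the probes to different RefSeq transcripts of Gria4, and they need not measure the same transcripts, so no single direction between the series can be given for this gene.

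**Figure D3:**
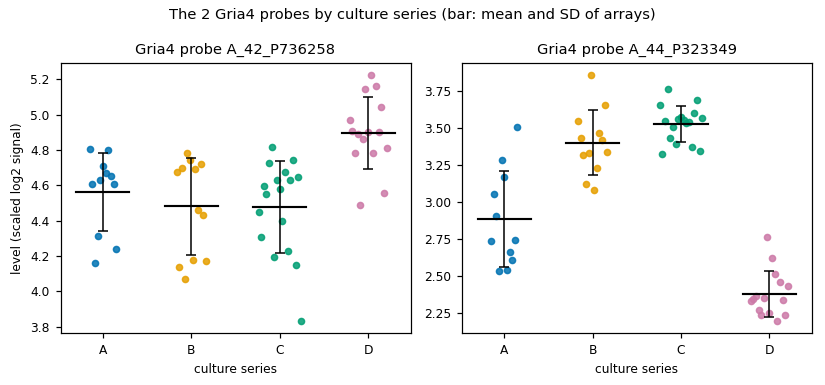
Levels (vertical axis, scaled log2 signal, its own range in each panel) of the Gria4 probes by series, with 1 point per array and a bar for the mean and SD. In series D the brighter probe (left) is higher than in A, B and C, and the other probe (right) is lower, from 2.20 to 2.77 against 2.54 to 3.86 elsewhere.

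The remaining kainate subunits differed less. Grik4 was lower in B than in C by 0.44 ± 0.13 and than in D by 0.49 ± 0.13 (SE, limma, adjusted p 0.00977 and 0.00223), with medians of 0.98 in B, 1.41 in C and 1.43 in D. Grik2 was lower in D than in B by 0.35 ± 0.15 (adjusted p 0.0459), a call that was lost when any 1 of 21 other arrays was left out, with changes from −0.41 to −0.29 and adjusted p up to 0.102. Leaving out the array that stood apart gave −0.33 ± 0.07 (adjusted p 0.00018) for the same comparison. Grik2 was then also lower in D than in A by 0.44 (adjusted p 2.31e-05), in C than in A by 0.32 (adjusted p 0.000944) and in C than in B by 0.20 (adjusted p 0.025). Grik3 and Grik5 passed in no comparison between series. Differences of Grik3 lay between −0.19 and +0.06 with standard errors from 0.19 to 0.24.

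Over all subunits, 3 were higher and 1 lower in D than in A (21.7% of all probes were higher and 20.0% lower), 5 higher and 2 lower than in B (28.8% and 24.1%), and 4 higher and 1 lower than in C (28.7% and 23.7%). In B against A 1 passed (30.4% of all probes), in C against A 1 (42.9%) and in C against B 1 (32.7%). In D against A and against C the share of subunits that passed was near that of all probes.

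**Figure D4:**
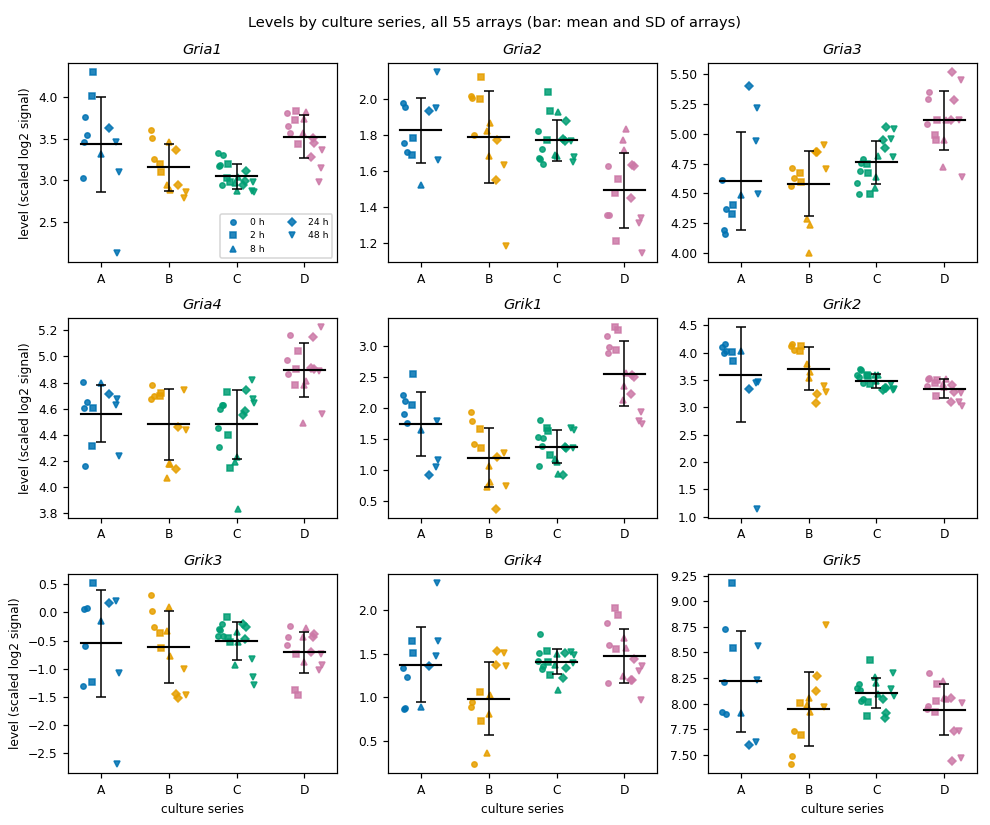
Level of each subunit (vertical axis, scaled log2 signal, its own range in each panel) by series for all 55 arrays, with the shape of a point giving the hours after stimulation and a bar for the mean and SD. Grik1 stands highest in D, from 1.75 to 3.30, and Gria2 lowest in D.

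The series also differed in markers of cell types, and their part in the differences of the subunits was not tested. All 5 inhibitory neuron genes (Gad1, Gad2, Slc32a1, Sst and Npy) were higher in D than in B, with a median of +1.23, and their mean level ran from 4.60 to 5.31 in D against 3.41 to 4.54 in B, 3.59 to 4.07 in C and 3.74 to 4.71 in A. Of 8 oligodendrocyte lineage genes, 7 were lower in D than in B, with a median of −2.62, and their mean level ran from 2.87 to 4.38 in D, 5.51 to 6.66 in B, 6.23 to 6.95 in C and 4.42 to 5.90 in A. All 4 dividing progenitor genes tested were lower in D than in B. Of 8 endothelial, mural and fibroblast genes, 6 were higher, and the collagen genes Col1a1 and Col1a2 were higher by 6.0 and 5.04. Of 7 neuron genes 5 were higher, of 5 excitatory neuron genes 2 were higher, and of 6 astrocyte genes 1 was higher and 2 lower. Microglial genes were mixed, with 2 higher and 3 lower of 6, and of 2 choroid plexus genes 1 was lower.

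The change over time itself differed between the series for Gria2, Grik1 and Grik4 (F test of the interaction, limma, adjusted p 0.00413, 0.00989 and 0.0149), beside 39.4% of all probes. Without the array that stood apart Grik2 passed as well (adjusted p 0.000906 in place of 0.231), and these 3 were kept. Grik1 in series D fell from a mean of 3.01 at 0 h to 1.83 at 48 h, by 1.19. In series C it was 1.58 at 0 h, 1.08 at 8 h and 1.56 at 48 h, so its level at 48 h was back near that at 0 h. At 0 to 24 h the arrays of D ran from 2.13 to 3.30 and the others from 0.38 to 2.55. At 48 h the arrays of D ran from 1.75 to 1.94 and the others from 0.75 to 1.79, and series D and the rest lay much closer together.

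Grik4 moved in opposite directions. Its mean rose from 1.06 to 1.81 in series A and from 0.69 to 1.43 in series B between 0 and 48 h, while it went from 1.54 to 1.21 in D and stayed at 1.47 and 1.46 in C. The 48 h mean of series A includes the array that stood apart, at 2.31, and the other 2 arrays were at 1.64 and 1.47.
Gria2 went from 1.94 at 0 h to 1.41 at 48 h in series B and from 1.45 to 1.26 in D, and from 1.68 to 1.70 in C. In A it went from 1.83 to 1.92, or to 1.81 without the array that stood apart. These means rest on 1 to 3 arrays each, with 1 array in series A at 8 h and at 24 h.

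**Figure D5:**
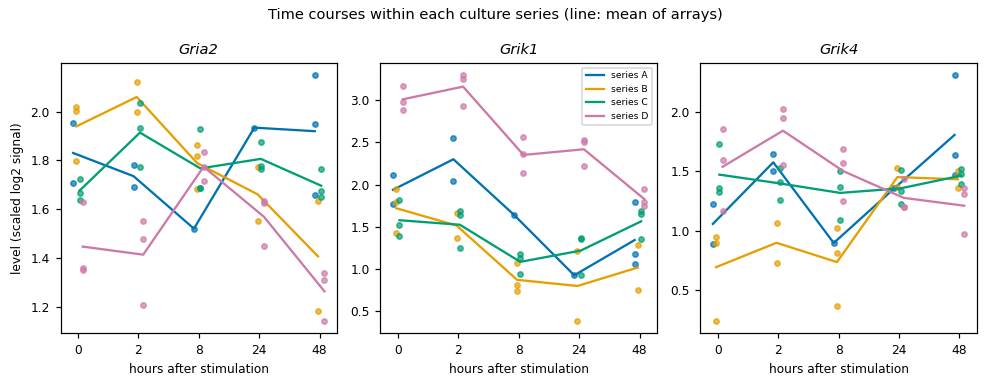
Levels of Gria2, Grik1 and Grik4 (vertical axis, scaled log2 signal, its own range in each panel) by hours after stimulation (evenly spaced), with points for sham, 1 Hz and iTBS arrays and a line through the means of each series. Grik1 in series D comes down from 3.01 at 0 h to 1.83 at 48 h, toward the other series.

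Genes that accompany these receptors were examined as a list of 30, of which 27 were tested. They include auxiliary subunits (the Cacng and Shisa families, Cnih2, Cnih3, Neto1 and Neto2), pentraxins that gather receptors, scaffold and trafficking proteins, and Adarb1, an enzyme that edits receptor transcripts. None passed against sham at any time, nor in the F test over the 10 comparisons. Over time 8 of the 27 passed the F test (27% of all probes did), and between the series 24 of the 27 did (75.4% of all probes).

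At 48 h, 7 of the 27 were lower than at 0 h and 1 higher, beside 13.4% and 13.6% of all probes. Their median change was −0.23, against −0.04 over all probes. The gene with the smallest p was Cacng3, an auxiliary subunit of AMPA receptors, which rose by 1.30 ± 0.19 (SE, limma, adjusted p 3.61e-06). Neto2, an auxiliary subunit of kainate receptors, fell by 0.79 ± 0.15 (adjusted p 0.000149), and Neto1 of the same kind had a change of +0.29 ± 0.12 (adjusted p 0.0725). Shisa8 fell by 0.59 ± 0.15, Nptx1 by 0.58 ± 0.13, Cacng4 by 0.76 ± 0.21 and Adarb1 by 0.32 ± 0.10 (adjusted p 0.00315, 0.00137, 0.00751 and 0.0201). Without the array that stood apart the counts were also 7 lower and 1 higher, with a median of −0.17. In that fit 24.3% of all probes passed at 48 h in either direction.

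Between the series, 11 of the 27 were higher in D than in B and 3 lower, beside 28.8% and 24.1% of all probes. Their median difference was +0.24, against +0.02 over all probes. Cacng3 again had the smallest p and was higher in D by 2.91 ± 0.18 against B, and by 2.35 and 2.47 against A and C. Grip1 and Grip2, scaffold proteins that bind AMPA receptors, were higher in D than in B by 0.66 ± 0.09 and 1.20 ± 0.14, and Olfm1 by 0.42 ± 0.09. Nptx2 was lower in D than in B by 0.59 ± 0.09 and than in A by 0.89, but higher than in C by 0.41. Nptx1 differed from B by −0.10 ± 0.12 (adjusted p 0.497), and its differences from A and C were −0.98 and +0.82.

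Each subunit was also set against 13894 other genes by the Pearson correlation of levels over the 55 arrays, which share series, time and slide, and the nearest gene is given as a description. For the AMPA subunits these were Kif5a for Gria1 (r 0.863), Cep295 for Gria2 (r 0.751), Arg1 for Gria3 (r 0.890) and Rbp4 for Gria4 (r 0.787). For the kainate subunits they were Npy1r for Grik1 (r 0.877), Slc6a6 for Grik2 (r 0.867), Znf740 for Grik3 (r 0.843), Ccdc91 for Grik4 (r 0.838) and Dpp9 for Grik5 (r 0.935). After group and series had been taken out, the correlations ran from 0.568 for Gria2 to 0.965 for Grik5. Among the subunits themselves the highest were between Gria3 and Gria4 (r 0.690), Gria4 and Grik1 (r 0.672) and Grik2 and Grik3 (r 0.598), and the lowest was between Grik2 and Grik4 (r −0.565). The array that stood apart had the lowest level of Grik2 (1.15) and of Grik3 (−2.69) and the highest of Grik4 (2.31). All these correlations include it, and none was computed without it.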

How the data were processed

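RNA from cultures was hybridised to 56 single-colour Agilent arrays by the authors, and the deposited scanner files give processed signal as an intensity per spot. The authors also deposited a score per spot, a z-score of the log signal within each array. A z-score recomputed over all spots matched it within 0.005. For the values used here, control spots and spots flagged as outliers were left out, and the spots of a probe were averaged. The z-score was then taken over probes and rescaled by 4.058, the median of the arrays' SDs, to give the scaled log2 signal. These values therefore differ from the deposited score. Of 45598 probes, 35707 passed the filter. Groups were fitted with limma (version 3.58.1, R 4.3.3) with the series as a term and Benjamini-Hochberg adjustment over the 35707 probes, at an adjusted p under 0.05. Intervals cover 95%. Between 66.1% and 81.8% of probes were well above background per array, and the number of arrays limits the precision. Symbols were assigned by RefSeq accession through the GRCr8 table. The subunits, marker and accessory lists were chosen with earlier results of these data known. All 9 subunits were named, with the 6 accessory genes of smallest p over time and between series, and Neto1, which was named after its value was seen. The replicate numbers did not pair the samples, with a mean correlation of 0.16 between same-numbered samples and a minimum of −0.46. The normexp alternative used the median signal, the column at hand. Other alternatives changed the scaling, the filter, the model terms and the arrays used. The fits were tested on simulated data.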

Additional observations from a re-analysis of the deposited data

Results flagged for a closer look

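In 5 of the 72 sets of 4 arrays that were checked, 1 array lay far from the other 3, as the gap divided by the range shows, and chance gives about 1 in 20. For Grik2 at 48 h after 1 Hz the ratio was 0.939, from an array of series A at 1.15 with the others between 3.26 and 3.40. For Grik5 in sham at 2 h it was 0.902, from an array of series A at 9.18 with the others between 7.88 and 8.01. For Gria4 it was 0.874 in iTBS at 0 h and 0.866 in 1 Hz at 48 h, where the array of series D was highest, at 5.16 and 5.22. For Gria2 in 1 Hz at 8 h it was 0.840, from an array of series A at 1.52 with the others between 1.68 and 1.71.

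The change over time differed between the series for Gria2, Grik1 and Grik4, with adjusted p of 0.00413, 0.00989 and 0.0149 in the F test of the interaction (limma), and the share over all probes was 39.4%. Without 1 Hz at 48 h replicate 1, Grik2 passed this test as well, with an adjusted p of 0.000906.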

How the results depend on the processing

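The subunits passed in 0 tests against sham under every alternative but 1. With all 56 arrays, 7 subunits passed at 1 Hz at 2 h, where the array with the badly placed grid belongs and 61.6% of all probes passed. In that fit the F test over time called 0 subunits, the 4 comparisons with 0 h called 0, the 6 comparisons between series called 9, the interaction called 0, and of the accessory genes 11 passed between series and 0 over time. Gria1 in C against A then had the opposite sign, +0.10. The calls over time depended on the model. The F test over time called 5 subunits and the comparisons with 0 h called 9. Without the series term these were 1 and 3 (accessory genes 3 in place of 8). With the slide term they were 1 and 4. The replicate numbers as a block gave 2 and 5 (accessory genes 5). Array weights gave 17 accessory genes over time, normexp gave 5 interactions in place of 3, and the further probes gave 2 in the F test over time. With its further probe Gria4 differed in D from A, B and C by −0.49, −1.04 and −1.15. Leaving out 1 array at a time gave 4 to 6 in the F test over time, 6 to 9 against 0 h, 6 to 7 between series by the F test, 18 to 23 in the comparisons between series, 3 to 5 for the interaction (5 without sham at 48 h replicate 1 or iTBS at 48 h replicate 3), and 23 to 25 and 6 to 11 accessory genes between series and over time. Of the 28 calls of subunits over time and between series, 28 were kept with quantile normalization and 24 with scaling to the 75th percentile. Apart from 1 Hz at 2 h with all 56 arrays, shares of all probes are not given for these fits. Their counts therefore do not show whether the subunits fared differently from other probes. The causes were not tested.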
